A study of Mus musculus with 6 samples.

Results

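The genes described here are 47 genes of late cell cycle, mitosis and cytokinesis, given as a list of names that was drawn up with earlier results of these data known. Of these, 46 were measured, out of 18193 genes in all; Ccnb1 was not measured by a probe set named to it alone. Each gene is represented by its brightest probe set (highest mean over all arrays), 15 members by the sole probe set they have and 31 by a choice among several. The members fall into 8 roles: mitotic kinases and cyclins (8 measured), the spindle checkpoint (4), anaphase and cyclin destruction (4), the kinetochore (5), the chromosomal passenger complex (4), the spindle (9), cytokinesis (6) and mitotic chromosome structure (6).

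They were compared on 6 Affymetrix arrays of isolated heart cells from C57BL/6J mice, 2 arrays for each of 3 groups. Adult cardiomyocytes, the contracting muscle cells of the heart, came from males of 8 weeks by Langendorff perfusion, in which enzyme solution is run through the coronary vessels. Neonatal cardiomyocytes and neonatal cardiac fibroblasts, the connective tissue cells, came from day 1 pups of both sexes by dissociation and separation on Percoll, a density medium. Adult and neonatal cells thus differ in age, in sex and in how they were isolated, and these cannot be told apart. For all cells the labels give trypsin and collagenase, and they describe growth on a dish with TMRM, a dye of active mitochondria, used to see that no cardiomyocytes were left, so the fibroblasts may have divided in culture before lysis. Whether the 2 arrays of each group stem from different mice is not stated, so a p-value here reflects array-to-array spread that may be technical.

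In a dividing cell, Cdk1 bound to its cyclins starts mitosis, kinetochores tie the chromosomes to spindle microtubules, and the spindle checkpoint delays anaphase until every chromosome is attached. Anaphase then begins when the anaphase-promoting complex marks securin and the cyclins for destruction, and cytokinesis splits the cell. Mouse cardiomyocytes still divide around birth and largely stop soon afterwards, many of them after a last mitosis without cytokinesis that leaves several nuclei in the cell. Most of these genes are transcribed only late in the cell cycle, and in mouse and human cells they are known to be silenced outside division through a short element near the start, the cell cycle genes homology region (CHR), and to be driven by NF-Y at CCAAT boxes.

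The promoters of the members with the largest differences between adult and neonatal cardiomyocytes are shown first. The sequences are from RefSeq (GRCm38.p6), read 5′ to 3′ on the gene's strand. The upstream stretch ends at the base before the annotated start, and the second stretch lies after it. Capitals mark CCAAT (or ATTGG, the same box on the other strand) and the CHR-like letters TTTGAA or TTCGAA (or TTCAAA, the other strand of TTTGAA). Birc5 lies on chr11:117849117-117849236 (plus strand), and neither motif is in its printed stretch:
Birc5 upstream: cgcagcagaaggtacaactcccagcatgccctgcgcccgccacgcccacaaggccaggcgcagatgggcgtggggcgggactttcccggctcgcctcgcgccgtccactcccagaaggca
Anln is shown at chr9:22389207-22389326 and chr9:22389164-22389193 (minus strand), with CHR-like letters in both orientations side by side after the start:
Anln upstream: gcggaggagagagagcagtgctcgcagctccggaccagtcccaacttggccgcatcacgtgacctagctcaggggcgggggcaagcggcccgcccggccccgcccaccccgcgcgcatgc
Anln after the start: cgctgaaaTTCAAAtTTTGAAcggccgtgg
Bub1 is shown at chr2:127831860-127831979 and chr2:127831824-127831853 (minus strand), with CCAAT boxes upstream and a CHR-like motif after the start:
Bub1 upstream: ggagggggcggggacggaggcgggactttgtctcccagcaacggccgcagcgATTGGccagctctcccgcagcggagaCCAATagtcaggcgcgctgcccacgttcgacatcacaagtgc
Bub1 after the start: gcggggaaTTCGAAtcgccggcggccttcg
Cdk1 is shown at chr10:69352913-69353032 (minus strand), with both motifs upstream:
Cdk1 upstream: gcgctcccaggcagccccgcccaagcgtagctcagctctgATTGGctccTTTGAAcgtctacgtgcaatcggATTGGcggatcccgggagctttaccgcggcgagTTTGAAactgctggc

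Cenpa and Cenpf, the members with the smallest differences, were added for contrast after their values were seen. Cenpa is shown at chr5:30666766-30666885 and chr5:30666894-30666923 (plus strand), and Cenpf at chr1:189688087-189688206 and chr1:189688057-189688086 (minus strand); both hold CCAAT upstream and CHR-like letters after the start:
Cenpa upstream: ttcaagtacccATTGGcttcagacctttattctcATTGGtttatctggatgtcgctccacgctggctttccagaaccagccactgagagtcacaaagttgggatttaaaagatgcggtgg
Cenpa after the start: ggtgatttTTTGAActgctggcgaccgagt
Cenpf upstream: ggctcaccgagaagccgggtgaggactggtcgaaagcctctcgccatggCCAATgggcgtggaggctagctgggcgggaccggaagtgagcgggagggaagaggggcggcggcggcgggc
Cenpf after the start: agTTTGAAtcgctcgtgctggtcggggagg

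Of the 46 measured members, 39 have a promoter in the RefSeq table. TTTGAA or TTCGAA, on either strand, occurs in 31 of these 39 (79.5%) within 250 bases before to 50 after the start, against 17.5% of the 14452 measured genes with a promoter. Within 50 bases of the start on either side, 28 members (71.8%) hold it, against 4.62% of all measured genes. CCAAT, on either strand, is found in 30 members (76.9%) and at 2 or more places in 20 (51.3%), against 42% and 14.9% of all measured genes. Both motifs together occur in 28 members (71.8%), against 7.05% of all measured genes. Birc5, the member with the largest difference, holds neither motif anywhere in this window. The CHR-like letters are most frequent in the 50 bases after the start (19 members) and CCAAT in the 50 bases before it (21 members). In the 131 other mitosis genes described further on, 111 have a promoter, and 50 of them (45%) hold the CHR-like letters. The CHR-like letters are in 23 of the 30 members with a promoter that passed the test below and in 8 of the 9 that did not, a split that was not tested. A match describes the letters in the window and not a bound site.

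**Figure D1:**
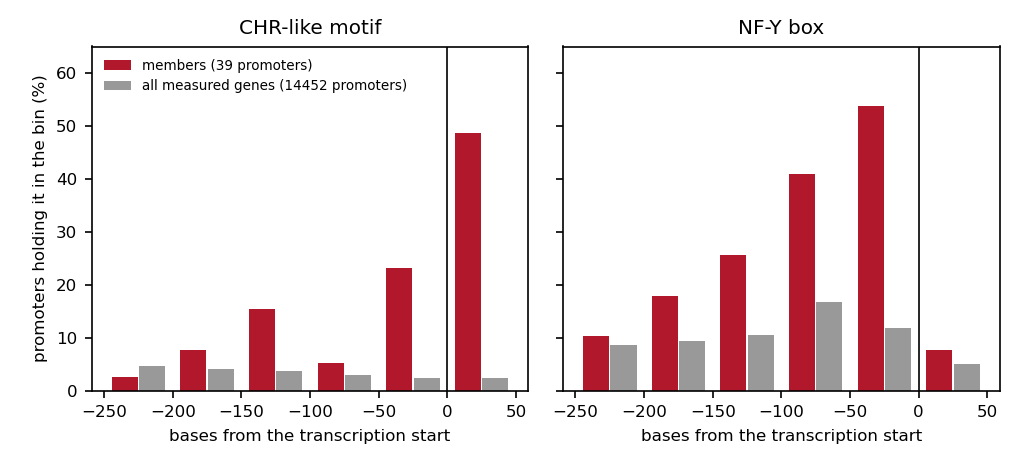
Share of promoters (vertical axis, %) that hold a CHR-like motif (left) or a CCAAT box, the binding motif of NF-Y (right), in each bin of 50 bases by distance from the transcription start (horizontal axis), for the 39 members with a promoter (red) and the 14452 measured genes with a promoter (grey). The CHR-like motif stands highest just after the start, in 48.7% of members against 2.32% of all measured genes, and the CCAAT box just before it, in 53.8% against 11.9%.

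Before the comparisons, the arrays were set against their labels. For replicate 1 of both neonatal groups, the title contradicts the source name, the cell type and the description, and the groups here follow the source name. The median of 8 cardiomyocyte markers was 14.24 and 14.17 in adult cardiomyocytes, 14.23 and 14.01 in neonatal cardiomyocytes, but 7.99 and 11.59 in fibroblasts. The median of 10 fibroblast markers was 8.24 and 9.81 in adult cardiomyocytes, 10.28 and 9.43 in neonatal cardiomyocytes, but 12.58 and 11.86 in fibroblasts. On the replicate 1 arrays the markers thus follow the source name, while fibroblast replicate 2 carries more cardiomyocyte signal than fibroblast replicate 1. The 10 leukocyte markers were highest on fibroblast replicate 1, with a median of 11.56, against 8.83 on fibroblast replicate 2. All values are log2 RMA values, and n = 2 arrays in each group.

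The mitosis and cytokinesis genes were lower in adult than in neonatal cardiomyocytes. Adult arrays lay below both neonatal cardiomyocyte arrays for 46 of 46 members, and 36 members fell past the threshold (limma, adjusted p under 0.05 over all genes), with 0 past it in the other direction. Of all genes, 1.22% fell past the threshold, 1.08% rose past it and 23.8% had adult arrays below both neonatal ones. The median log2 difference of the members was −3.68, which is 12.8-fold lower in adult cells, against 0.09 for all genes, and single members lay between −5.70 and −0.89. At least 8-fold lower means were found for 34 members and at least 32-fold lower means for 5. Adult cardiomyocytes had member medians of 5.13 and 5.23, against 9.53 and 8.49 for neonatal cardiomyocytes. On these arrays 16 and 15 of the 46 members lay under the lower quartile of all genes (4.88 and 4.85 in adult cardiomyocytes), and 9 lay under it on both: Bub1, Ttk, Nuf2, Birc5, Aurkb, Kif2c, Spag5, Ect2 and Ncapg. For these 9 the adult value is near the low end of the RMA scale, which has no detection call, so their folds and ranks describe the RMA values and are not exact. In RNA of whole cell samples, fewer dividing cells and less of the transcript per cell cannot be told apart.

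The number called rests on the pooled spread of few arrays. Without adult replicate 1, without adult replicate 2 or without neonatal cardiomyocyte replicate 2, limma called 0 of the 18193 genes, so also 0 members, with 2572, 3303 and 2729 genes and 44, 43 and 46 members at an unadjusted p under 0.05. The member medians in these fits were −3.77, −3.74 and −4.12. Without neonatal cardiomyocyte replicate 1, fewer members and fewer of all genes were called, and the member median was −3.33. In a fit of the 2 cardiomyocyte groups alone, 21 members were called, against 164 of all genes. The summed cardiomyocyte markers (log2) lay at 17.1 to 17.2 on the adult arrays and 16.9 to 17.1 on the neonatal cardiomyocyte arrays. The summed fibroblast markers ranged from 12.09 to 13.998 on the adult arrays and from 14.1 to 14.3 on the neonatal cardiomyocyte arrays, none of the 10 under the lower quartile of its array, and 5 of the 10 lay lower on both adult arrays. Epicardial and mesothelial markers were lower on both adult arrays in 5 of 6, with medians of 5.54 and 6.43 in adult cardiomyocytes, against 7.80 and 8.13 in neonatal cardiomyocytes (summed 8.79 to 9.21, against 10.85 to 10.91). Both adult arrays lay above both neonatal cardiomyocyte arrays for 4 of 10 leukocyte, 1 of 8 endothelial and 3 of 7 smooth muscle and pericyte markers. Below both lay 0, 0 and 2 markers of these lists. Of the 5 erythroid markers 3 lay above and 0 below, with 2 and 3 under the lower quartile of the adult arrays. The part of these cells in the result was not tested.

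**Figure D2:**
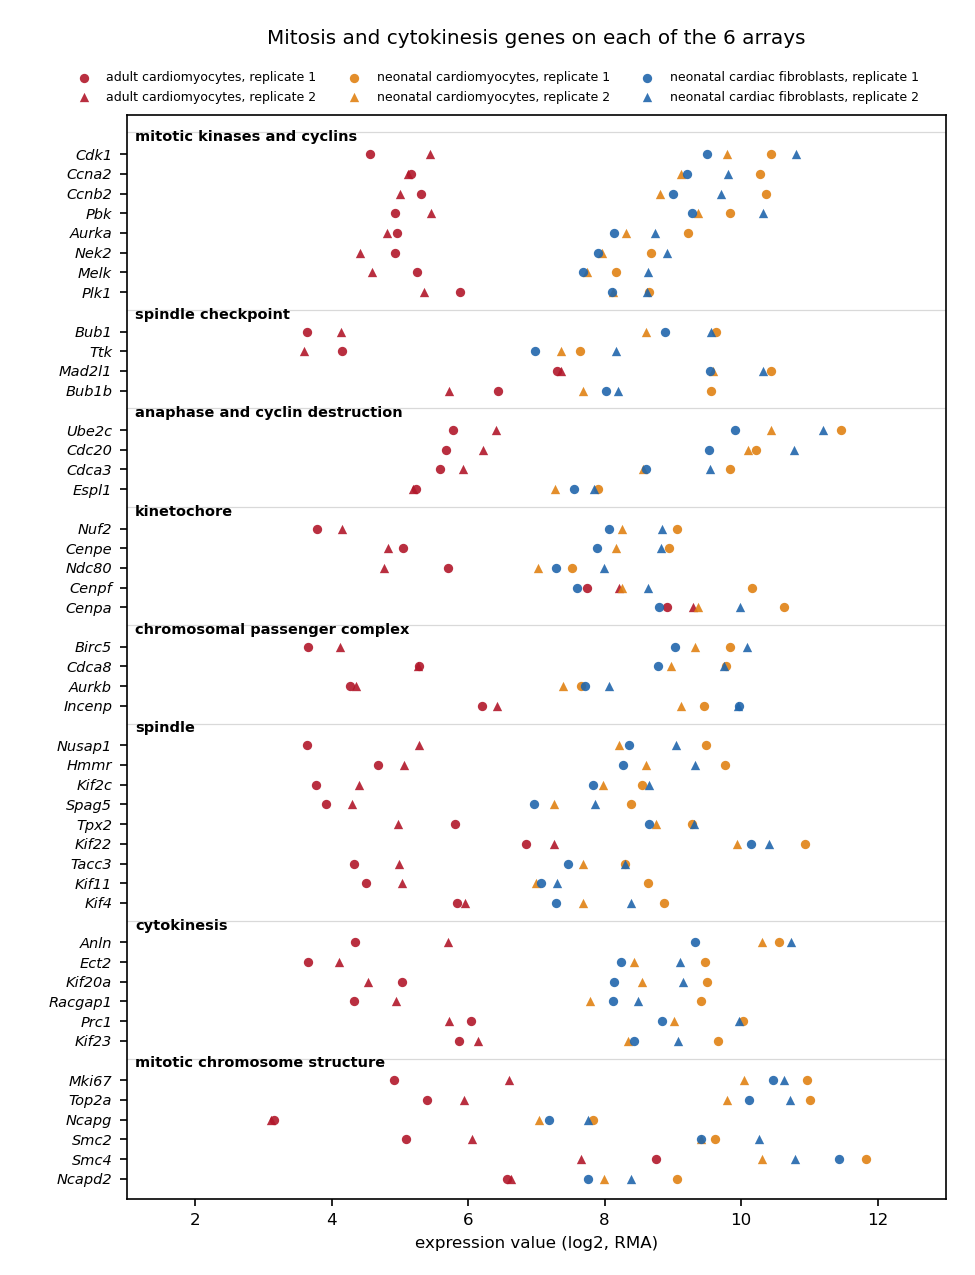
Expression of the 46 measured mitosis and cytokinesis genes (rows, by role) on each of the 6 arrays (horizontal axis, log2 RMA value); red marks adult cardiomyocytes, orange neonatal cardiomyocytes and blue neonatal cardiac fibroblasts, with circles for replicate 1 and triangles for replicate 2. Adult arrays lie below all 4 neonatal arrays for 44 of 46 members, the exceptions being Cenpa and Cenpf.

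All 8 measured kinases and cyclins fell in adult cardiomyocytes, with a median of −4.15. Cdk1, the kinase that starts mitosis, measured 4.56 and 5.44 in adult cardiomyocytes, against 10.44 and 9.79 in neonatal cardiomyocytes and 9.50 and 10.80 in fibroblasts. Its adult level was 34.7-fold lower than in neonatal cardiomyocytes (log2 difference −5.12, SE 0.55, adjusted p = 0.0276), and no adult array came near a neonatal one. Its partner Ccna2, cyclin A2, lay at 5.17 and 5.12 in adult cells, against 10.28 and 9.12 in neonatal cardiomyocytes (23.5-fold lower). Ccnb2, cyclin B2, was 21.6-fold lower and Pbk, a mitotic kinase, 21.3-fold lower. The kinases Aurka, which acts at the spindle poles, Nek2, which parts the centrosomes, and Melk fell, with log2 differences of −3.88, −3.65 and −3.04. Plk1, polo-like kinase, had the smallest difference of this role, with 5.88 and 5.36 in adult cells against 8.65 and 8.13 in neonatal cardiomyocytes, and still fell 6.82-fold (adjusted p = 0.0293).

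Of the 4 spindle checkpoint genes 3 fell, with a median over all 4 of −3.15. Bub1, a checkpoint kinase at kinetochores, measured 3.65 and 4.14 in adult cells, against 9.63 and 8.60 in neonatal cardiomyocytes and 8.89 and 9.56 in fibroblasts. With its adult values near the low end of the scale, it was 37.4-fold lower in adult than in neonatal cardiomyocytes (log2 difference −5.23, SE 0.44, adjusted p = 0.0198). Ttk, the kinase that recruits the checkpoint proteins, was 12.3-fold lower and Mad2l1, which binds and restrains Cdc20, 6.43-fold lower. Bub1b, the checkpoint protein BubR1, did not pass: it lay at 6.44 and 5.73 in adult cells against 9.56 and 7.68 in neonatal cardiomyocytes (log2 difference −2.54, adjusted p = 0.114). The neonatal arrays of Bub1b are 1.88 apart, more than those of the other checkpoint genes, and both still lie above the adult ones.

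All 4 genes of anaphase and cyclin destruction fell, with a median of −3.83. Ube2c, the ubiquitin-conjugating enzyme of the anaphase-promoting complex, had 5.78 and 6.41 in adult cells, against 11.46 and 10.44 in neonatal cardiomyocytes and 9.91 and 11.20 in fibroblasts. The adult level was 28.9-fold lower (log2 difference −4.86, SE 0.57, adjusted p = 0.0305). Cdc20, the activator of that complex, was 18.5-fold lower, and Cdca3, an adaptor in the destruction of the mitotic inhibitor Wee1, 10.9-fold lower. Espl1, separase, the protease that opens cohesin, had the smallest difference here, with 5.24 and 5.19 against 7.91 and 7.27 in neonatal cardiomyocytes (5.19-fold lower, adjusted p = 0.0284).

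The kinetochore genes differed most among themselves. Their median of −2.04 was the smallest of the 8 roles, and 2 of 5 fell past the threshold. Nuf2, part of the complex that grips microtubules, measured 3.78 and 4.15 in adult cells, against 9.06 and 8.26 in neonatal cardiomyocytes, and was 25.9-fold lower (adjusted p = 0.0198). Cenpe, a kinetochore kinesin, was 12.3-fold lower. Ndc80, the partner of Nuf2 in the same complex, lay at 5.70 and 4.77 against 7.53 and 7.02 (log2 difference −2.04, adjusted p = 0.0823). Cenpf, an outer kinetochore protein, lay at 7.74 and 8.21 in adult cells against 10.15 and 8.25 (−1.23, adjusted p = 0.352). Cenpa, the histone variant that marks centromeres, had the smallest difference of all members, with 8.92 and 9.30 in adult cells against 10.62 and 9.37 in neonatal cardiomyocytes (−0.89, adjusted p = 0.396). For these last 2 genes the higher adult array came within 0.1 of neonatal cardiomyocyte replicate 2.

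The chromosomal passenger complex, which corrects wrong attachments and then moves to the midzone, fell in all 4 members, with a median of −3.66. Birc5, survivin, measured 3.65 and 4.12 in adult cells, against 9.84 and 9.33 in neonatal cardiomyocytes and 9.03 and 10.08 in fibroblasts. In these values, with the adult arrays near the low end of the scale, its difference was the largest of the members (51.8-fold lower, log2 difference −5.70, SE 0.42, adjusted p = 0.0181). Cdca8, borealin, was 17.2-fold lower. Aurkb, the kinase of the complex, and Incenp, its scaffold, had smaller differences of −3.20 and −2.98 with SEs of 0.21 and 0.20, and the lowest adjusted p of the members (0.0166 each). Incenp lay at 6.20 and 6.42 in adult cells, against 9.45 and 9.12 in neonatal cardiomyocytes.

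Of the 9 spindle genes 6 fell, with a median of −3.63. The microtubule-binding gene Hmmr was 19.9-fold lower, and Kif2c, a kinesin that shortens microtubules, 18.1-fold lower. Spag5, or astrin, was 13.1-fold lower, Tpx2, the activator of Aurora A, 12.4-fold, the chromokinesin Kif22 10.4-fold, and Tacc3, which stabilises spindle fibres, 10.1-fold. Nusap1, which bundles microtubules near chromatin, had the largest difference of this role and did not pass: it measured 3.64 and 5.28 in adult cells, 1.63 apart, against 9.49 and 8.21 in neonatal cardiomyocytes (−4.39, adjusted p = 0.0537). Kif11, the motor that pushes the poles apart, had a difference of −3.05 (adjusted p = 0.0676). The chromokinesin Kif4 had the smallest difference, with 5.84 and 5.96 in adult cells against 8.87 and 7.68 (−2.38, adjusted p = 0.0903).

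Cytokinesis genes had a median of −4.10, and 5 of 6 fell. Anln, anillin, the scaffold of the contractile ring, measured 4.34 and 5.70 in adult cells, against 10.56 and 10.31 in neonatal cardiomyocytes and 9.32 and 10.73 in fibroblasts (42.5-fold lower than in neonatal cardiomyocytes, log2 difference −5.41, SE 0.63, adjusted p = 0.0304). Ect2, the exchange factor that activates RhoA at the cleavage site, had 3.65 and 4.12 in adult cells, against 9.48 and 8.43 in neonatal cardiomyocytes and 8.24 and 9.11 in fibroblasts (33.5-fold lower than in neonatal cardiomyocytes, adjusted p = 0.0232). The adult arrays of Anln are 1.36 apart, yet both lie more than 4 log2 units below every neonatal cardiomyocyte value. Kif20a, a midzone kinesin, was 18.8-fold lower, Racgap1, a subunit of centralspindlin, 15.6-fold, and Prc1, which bundles midzone microtubules, 12.5-fold. Kif23, the motor subunit of centralspindlin, had the smallest difference, with 5.86 and 6.15 against 9.66 and 8.34 (−3.00, adjusted p = 0.0557).

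Among the genes of mitotic chromosome structure 4 of 6 fell, with a median of −4.12. Mki67, which codes for the proliferation marker Ki-67 that coats mitotic chromosomes, measured 4.91 and 6.60 in adult cells, against 10.97 and 10.04 in neonatal cardiomyocytes and 10.47 and 10.63 in fibroblasts. It was 26.8-fold lower in adult than in neonatal cardiomyocytes (SE 0.62, adjusted p = 0.0364), although its adult arrays are 1.69 apart, the widest adult gap of the members. Top2a, the topoisomerase that untangles sister chromatids, had 5.40 and 5.93 in adult cells, against 11.004 and 9.79 in neonatal cardiomyocytes and 10.12 and 10.72 in fibroblasts (26.5-fold lower than in neonatal cardiomyocytes, adjusted p = 0.0256). Of the condensin genes, which fold chromosomes, Ncapg was 19.7-fold lower and Smc2 15.4-fold lower. Smc4 did not pass, at 8.75 and 7.65 against 11.84 and 10.31 (−2.87, adjusted p = 0.0915), and neither did Ncapd2, at 6.57 and 6.62 against 9.06 and 7.99 (−1.93, adjusted p = 0.0858). Of the 10 members that did not pass, 8 had an unadjusted p under 0.05 (limma), the exceptions being Cenpa and Cenpf.

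**Figure D3:**
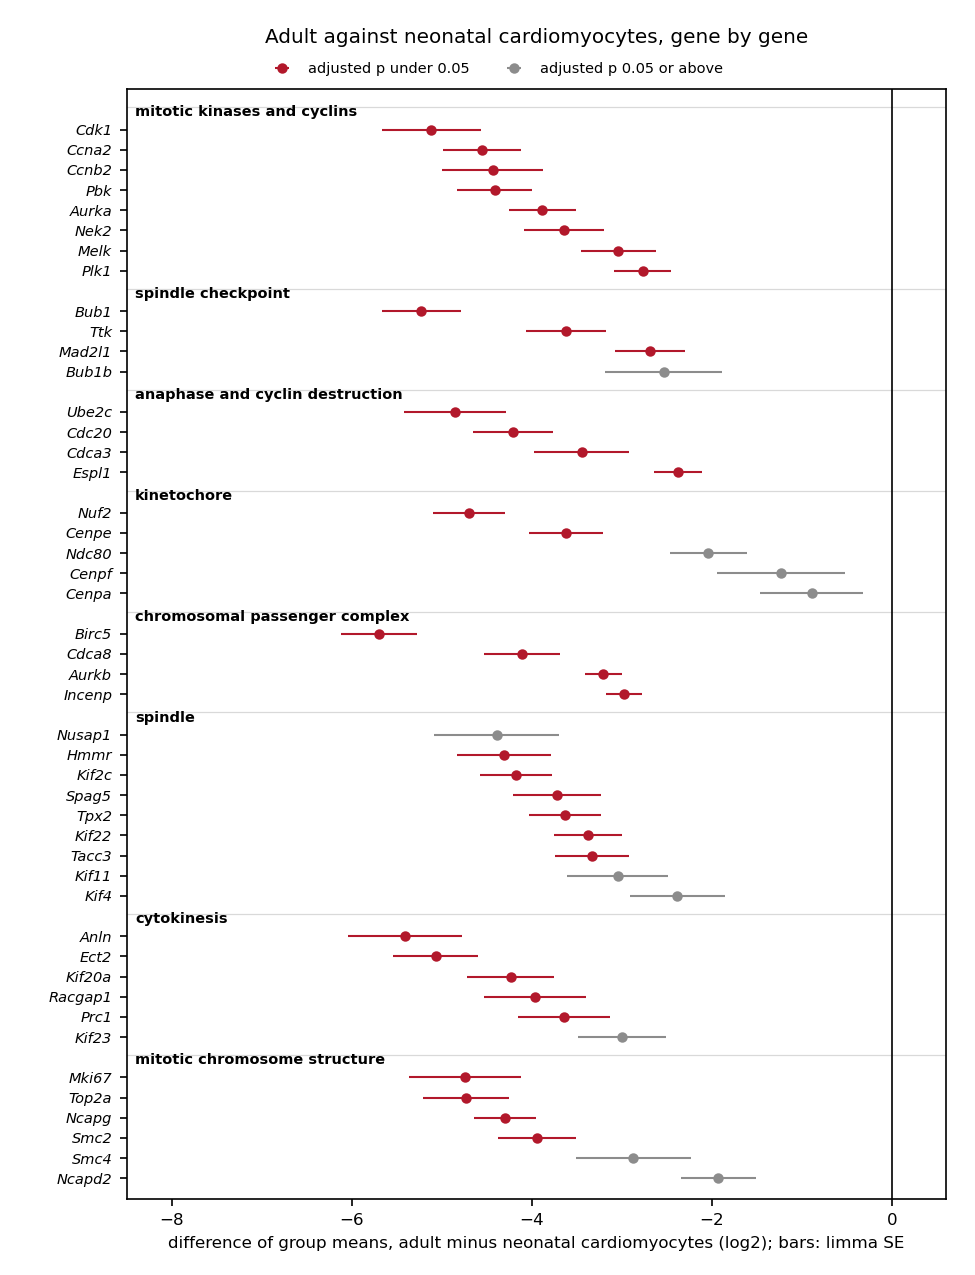
Difference of group means between adult and neonatal cardiomyocytes (horizontal axis, log2) for each member, by role; bars are limma standard errors, red points passed the threshold (adjusted p under 0.05) and grey points did not. All 46 points lie left of 0, from −5.70 for Birc5 to −0.89 for Cenpa, and 3 of the 5 kinetochore genes are grey.

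The differences depended in part on the probe set. Besides the 46 probe sets used, 60 others are named to a member alone. Of these 60, 45 (75%) were lower in adult than in neonatal cardiomyocytes, with a median of −1.64, against 43.8% of all probe sets named to 1 gene. Of the 28 with a mean of at least 6 over the arrays, 27 were lower, with a median of −2.69. Of the 32 dimmer ones 18 were lower, with a median of −0.22. That mean takes in the neonatal arrays, so a set could reach 6 through its neonatal values alone, and the split at 6 only describes the sets. A further probe set of Bub1b had a larger difference than the one used (−3.82, with 4.62 and 4.74 in adult cells against 9.25 and 7.75 in neonatal cardiomyocytes), and so had one of Kif11 (−4.19), while the remaining set of each gene gave a smaller one (−0.30 for Bub1b and −1.86 for Kif11). Of Cenpf, the other probe sets gave −0.13 and −1.67, and of Cenpa 0.05 and 0.38. With the mean of all probe sets of each gene, the member median was −2.78 in place of −3.68.

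Between the neonatal cell types, 0 of 46 members were called in limma, and 1 (Incenp) had an unadjusted p under 0.05. Of all genes, 0.819% were called and 16.3% had an unadjusted p under 0.05. The median difference, neonatal cardiomyocytes minus fibroblasts, was 0.12, with 31 means higher and 15 lower, from −0.68 for Incenp to 1.09 for Cenpf. By role the medians lay between −0.17 for the chromosomal passenger complex and 0.29 for cytokinesis. The values leave room for differences of moderate size: the 95% confidence intervals reach between 0.505 and 1.80 log2 units to either side, with a median of 1.13. For Birc5 the difference was 0.02, with an interval from −1.05 to 1.09, and for Cdk1 −0.04, with an interval from −1.44 to 1.36.

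Arrays of the neonatal cell types overlapped for 44 members, the exceptions being Incenp and Aurkb, whereas 45.4% of all genes did not overlap in one direction or the other. Incenp measured 9.45 and 9.12 in neonatal cardiomyocytes, against 9.97 and 9.95 in fibroblasts (log2 difference −0.68, adjusted p = 0.194). Aurkb lay at 7.65 and 7.39 in neonatal cardiomyocytes, against 7.72 and 8.07 in fibroblasts (−0.37, adjusted p = 0.475). Both are subunits of the passenger complex and lean towards fibroblasts, but neither passed. The other measured subunits, Birc5 (0.02) and Cdca8 (0.11), did not lean that way, and their arrays overlapped. Cenpf leaned the other way, with 10.15 and 8.25 in neonatal cardiomyocytes against 7.59 and 8.64 in fibroblasts (1.09, adjusted p = 0.553). Its neonatal cardiomyocyte arrays lie 1.90 apart, more than the difference. Kif11, with 8.64 and 7.0002 against 7.07 and 7.31 (0.63, adjusted p = 0.693), and Cenpa, with 10.62 and 9.37 against 8.79 and 9.98 (0.61, adjusted p = 0.710), likewise had their highest value on neonatal cardiomyocyte replicate 1. The same array was the highest of the 4 for Bub1b (0.51), Ncapd2 (0.45), Kif4 (0.44) and Spag5 (0.42).

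The neonatal arrays split by array rather than by cell type. For 43 of 46 members, neonatal cardiomyocyte replicate 1 and fibroblast replicate 2 both lay above neonatal cardiomyocyte replicate 2 and fibroblast replicate 1, the exceptions being Aurkb, Incenp and Smc4. Neonatal cardiomyocyte replicate 1 exceeded replicate 2 for all 46 members, with a median of 0.91, while over all genes the median was −0.01. Fibroblast replicate 1 lay below replicate 2 for 44 members, with a median of −0.81. As a result neonatal cardiomyocyte replicate 1 lay above fibroblast replicate 1 for 44 members, and neonatal cardiomyocyte replicate 2 below fibroblast replicate 2 for all 46 (median −0.69). With the groups of the titles, all 46 means were lower in the arrays titled as neonatal cardiomyocytes, with a median of −0.85. In that direction 43 members did not overlap, against 10.4% of all genes. In that fit limma called 0 of the 18193 genes, so also 0 members. An unadjusted p under 0.05 was found for 26 of the 46 members, against 232 of all genes. Without both neonatal replicate 1 arrays the median was −0.69. With each neonatal array left out in turn the median ran from −0.34 to 0.58, so the direction between the neonatal cell types turned on which arrays were compared.

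Several marker lists differed between the same arrays, not all in the direction of the members. From the higher to the lower array for the members, endothelial marker medians were 8.81 and 7.79 in neonatal cardiomyocytes (6 of 8 markers higher on replicate 1) and 7.76 and 6.57 in fibroblasts (7 of 8 higher on replicate 2). Smooth muscle and pericyte marker medians were 8.83 and 8.06 in neonatal cardiomyocytes (4 of 7 higher) and 8.17 and 6.18 in fibroblasts (5 of 7 higher). Cardiomyocyte markers were higher on those arrays in 7 of 8 and in 8 of 8. Leukocyte markers ran with the members in neonatal cardiomyocytes (medians 6.94 and 5.25, 10 of 10 higher) and against them in fibroblasts (8.83 and 11.56, 0 of 10 higher). Fibroblast markers were higher in 6 of 10 on neonatal cardiomyocyte replicate 1 (medians 10.28 and 9.43, summed 14.30 and 14.08) and in 3 of 10 on fibroblast replicate 2 (medians 11.86 and 12.58). Summed levels (log2) of 2 lists went against their medians in neonatal cardiomyocytes. From replicate 1 to replicate 2 they were 12.01 and 12.54 for endothelial and 12.20 and 13.24 for smooth muscle and pericyte markers. In fibroblasts they were 9.83 and 11.5, and 13.7 and 14.2, in the order of the medians. Summed leukocyte markers (log2) ran from 9.56 to 10.9 in neonatal cardiomyocytes, with 1 of 10 under the lower quartile of its array, and from 12.9 to 15.5 in fibroblasts. The part of these cells in the member values was not tested.

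**Figure D4:**
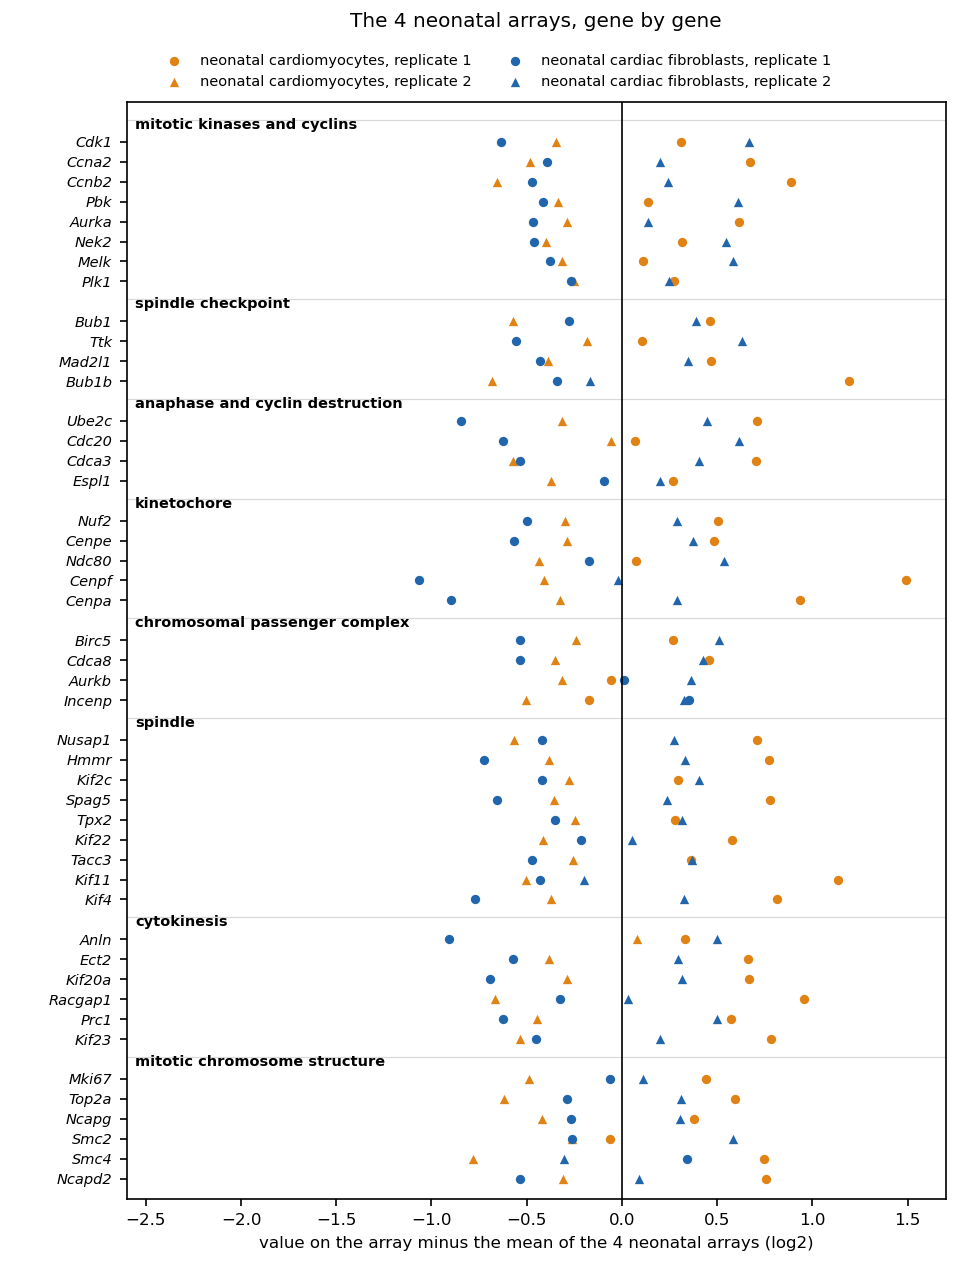
Value of each member on the 4 neonatal arrays, as the difference from the mean of those 4 arrays (horizontal axis, log2); orange marks neonatal cardiomyocytes and blue neonatal cardiac fibroblasts, with circles for replicate 1 and triangles for replicate 2. Orange circles and blue triangles lie right of the orange triangles and blue circles for 43 of 46 members, so the spread within a cell type exceeds the difference between the cell types for most members.

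Set against fibroblasts, 41 of 46 members fell in adult cardiomyocytes and 0 rose, with a median of −3.66; 11% of all genes fell past the threshold. Adult arrays lay below both fibroblast arrays for 44 members, against 30.2% of all genes. This comparison uses the same adult arrays as the one between cardiomyocytes, so the 2 are not independent. Birc5 again had the largest difference (51.0-fold lower, adjusted p = 0.00507), followed by Bub1 (40.4-fold), Cdk1 (35.6-fold), Anln (32.1-fold), Mki67 and Ect2 (27.7-fold each), Top2a (27.0-fold) and Pbk (24.3-fold). Pbk measured 4.93 and 5.46 in adult cells, against 9.29 and 10.32 in fibroblasts. Aurkb and Incenp had the lowest adjusted p of the members (0.00411 each), with differences of −3.58 and −3.65.

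By role, chromosome structure had the largest median against fibroblasts (−4.30) and the kinetochore the smallest (−2.40). Ndc80, Kif11, Nusap1, Kif23 and Smc4 passed the threshold against fibroblasts but not against neonatal cardiomyocytes. In that order their differences were −2.40, −2.42, −4.25, −2.75 and −2.91 against fibroblasts. Against neonatal cardiomyocytes they were −2.04, −3.05, −4.39, −3.00 and −2.87. Of all genes, 11% fell past the threshold against fibroblasts and 1.22% against neonatal cardiomyocytes. The difference between the 2 comparisons was tested only as neonatal cardiomyocytes against fibroblasts, where none of these genes passed. Bub1b (−2.03, adjusted p = 0.0850), Kif4 (−1.94, 0.0582) and Ncapd2 (−1.48, 0.0623) did not pass. Cenpa lay at 8.92 and 9.30 in adult cells against 8.79 and 9.98 in fibroblasts (−0.28, adjusted p = 0.748), and Cenpf at 7.74 and 8.21 against 7.59 and 8.64 (−0.14, adjusted p = 0.896). The arrays of both genes overlapped. With 1 adult array left out, whichever it was, limma called fewer members and fewer of all genes. The member median against fibroblasts was then −3.66 without adult replicate 1 and −3.59 without adult replicate 2.

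Other genes of mitosis were taken from 6 lists. Of 133 such genes 131 were measured, and 31 fell in adult against neonatal cardiomyocytes while 0 rose, against 1.22% and 1.08% of all genes, with a median of −1.09. Kinetochore and centromere genes fell in 8 of 29 (median −1.65), spindle and centrosome genes in 8 of 27 (−1.51), cytokinesis genes in 4 of 17 (−0.71), checkpoint and anaphase genes in 3 of 20 (−0.63), chromosome structure genes in 3 of 14 (−0.96) and entry regulators and transcription factors in 5 of 24 (−0.995). The largest were Cep55, the abscission scaffold, at 3.71 and 3.72 in adult cells against 9.57 and 8.59 in neonatal cardiomyocytes (41.3-fold lower), and Cks2, a Cdk-binding subunit, at 4.60 and 5.84 against 11.04 and 10.02 (39.6-fold). Depdc1a was 36.6-fold lower. The adult values of Cep55 and of Depdc1a (2.88 and 3.25) lay under the lower quartile of all genes (4.88 and 4.85). So did those of Cenpk, Cenpi and Zwilch, named next, and of Cdca5, Trip13, Psrc1, Kif20b, Cdca2 and Ccnf below. Folds and ranks of all these genes are not exact. The kinetochore subunit Spc25, a partner of Ndc80 and Nuf2, fell 24.0-fold, Cenpk 16.1-fold, Cenpi 12.9-fold and Zwilch, which brings dynein to kinetochores, 12.5-fold.

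Regulators of cohesion and anaphase were lower as well: Cdca5, sororin, which protects cohesin, fell 18.9-fold, Trip13, which recycles the Mad2 checkpoint protein, 18.6-fold, and Fbxo5, an inhibitor of the anaphase-promoting complex, 7.84-fold. Of the spindle list, Aspm fell 15.3-fold, Psrc1 14.5-fold, Kif20b 13.8-fold and Ckap2 9.15-fold. In cytokinesis and chromosome structure, Arhgap11a fell 13.8-fold, Shcbp1 12.3-fold, Cdca2 11.4-fold, and the condensin genes Ncapg2 10.3-fold and Ncaph 6.22-fold. Cks1b, the relative of Cks2, fell 9.13-fold, Ccnf, cyclin F, 5.34-fold, and Lin9, a subunit of the MuvB complex that binds CHR elements, 3.52-fold.

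The following subgroups were chosen after their values were seen. The 12 subunits of the anaphase-promoting complex, which unlike Cdc20 and Ube2c are present through most of the cell cycle, differed by −0.58 at the median; limma called 0 of them, and 5 had an unadjusted p under 0.05, against 2.3% and 22.8% of all genes. The 8 cohesin genes and regulators differed by −0.83 at the median, again with 0 called by limma and 4 at an unadjusted p under 0.05. Foxm1, a transcription factor of the late cell cycle, measured 7.38 and 7.14 in adult cells, against 7.46 and 6.86 in neonatal cardiomyocytes and 7.06 and 7.08 in fibroblasts (adult minus neonatal cardiomyocytes 0.10, adjusted p = 0.833). Its arrays overlapped, unlike those of the members. Mybl2 (0.11) and E2f1 (−0.11) also overlapped. Mybl2 lay between 4.80 and 5.24 on all arrays, near the lower quartile of all genes (4.65 to 4.88). Foxm1, Mybl2 and E2f1 have 4, 2 and 3 probe sets, and only the brightest of each was examined.

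On the brightest of its 3 probe sets, with the others not examined, Pttg1, securin, the inhibitor of separase, ran against the members. It measured 12.88 and 12.81 in adult cells, against 12.10 and 11.50 in neonatal cardiomyocytes and 11.08 and 11.15 in fibroblasts. The adult arrays are the highest; the difference was 1.05 against neonatal cardiomyocytes (adjusted p = 0.0962), and Pttg1 rose by 1.74 against fibroblasts (adjusted p = 0.0132). Against fibroblasts 65 of the 131 fell and 2 rose, against 11% and 10.1% of all genes. The other gene that rose, named after its value was seen, was Chmp4c, a subunit of the abscission machinery (2.27, adjusted p = 0.0162). Of genes named by the same rule in that comparison, Plk4, the kinase of centriole duplication, fell (−4.46), as did Rbl1, a relative of the retinoblastoma gene (−2.95), and the cohesin subunit gene Stag1 (−1.08). Between the neonatal cell types 0 of the 131 were called, with 13 at unadjusted p under 0.05 (limma), against 0.819% and 16.3% of all genes, so neither count stood above that of all genes.

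**Figure D5:**
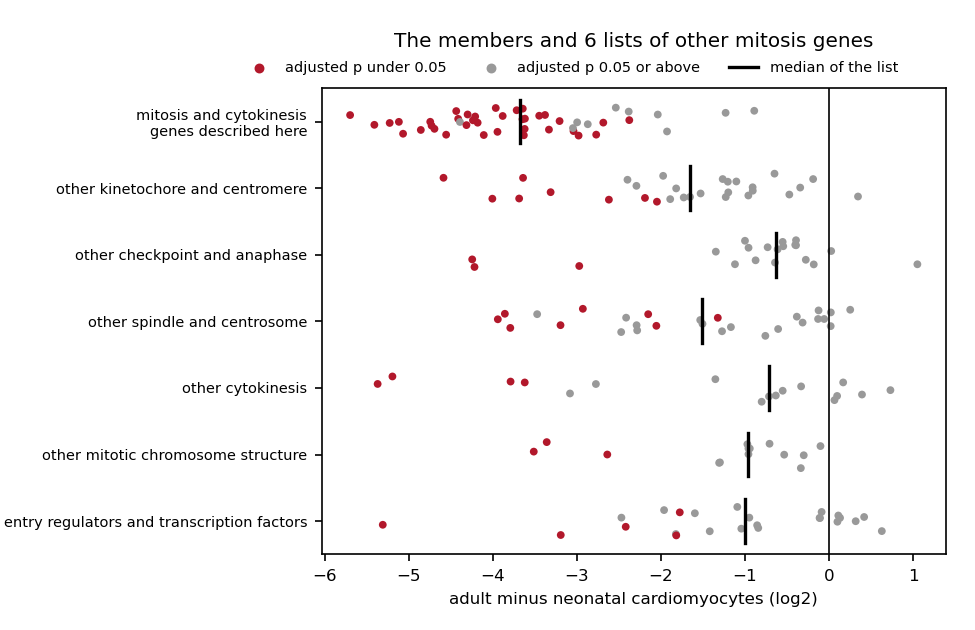
Difference of group means between adult and neonatal cardiomyocytes (horizontal axis, log2) for the 46 members and the 6 lists of other mitosis genes; each point is a gene, red where adjusted p was under 0.05, and black bars are the medians of the lists. The members have a median of −3.68 and the lists lie between −1.65 and −0.63, with separate red points between −5.37 and −1.32.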

How the data were processed

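RNA of 6 cell samples was measured on 6 Affymetrix arrays of a single colour, in 3 groups of 2. The deposited values are log2 expression values per probe set, made by the authors with RMA per the submitters' processing notes; the RMA version, and whether all arrays were processed together, are not given in the sources used here. RMA gives no detection call, and the number of arrays limits the precision.

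GEO's platform annotation names 34945 of the 45101 probe sets to 1 gene, 932 to several and 9160 to none here; 64 are controls. For each gene the brightest probe set, by its mean on the 6 arrays, was kept, leaving 18193 genes. Group means of all 3 groups were fitted together with limma 3.58.1 (lmFit and eBayes under R 4.3.3, two-sided), checked on simulated data, with Benjamini-Hochberg adjustment over the 18193 genes and a threshold of 0.05. Motifs were counted in RefSeq promoters of the GRCm38.p6 assembly, 250 bases before to 50 after each gene's start.

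The members, the lists of other mitosis genes and the markers were chosen with earlier results of these data known. Genes to be given with values were named by a rule. It covers the 8 members with the largest differences in a comparison (past the threshold with arrays that do not overlap, where there are 8 such members). It also covers the largest and smallest of each role, and up to 4 other mitosis genes past the threshold per list. Some of these genes, most other mitosis genes among them, are given by difference or fold alone, and some comparisons leave genes out. Values on every array outside this rule were chosen after they were seen: those of Ccna2, Ndc80, Cenpf and Smc4 against neonatal cardiomyocytes, of Aurkb between the neonatal cell types, of Cenpa against fibroblasts, and of Foxm1. The same holds for Chmp4c, Mybl2, E2f1 and the subgroups so named.

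Groups followed the source name. The alternatives were the titles' groups, both neonatal replicate 1 arrays left out, each array left out, a replicate block, a fit of 2 groups alone, a filter on dim genes (mean of at least 6), the mean of a gene's probe sets, a variance trend and 2 ways of centring the arrays.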

Additional observations from a re-analysis of the deposited data

How the results depend on the processing

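Under the alternatives, a fit of adult and neonatal cardiomyocytes alone called 21 members in place of 36, and 164 of all genes in place of 418. Without both neonatal replicate 1 arrays the calls in this comparison were lost over all genes, members included, and the member median was −3.33. With each array left out, members and all genes had fewer calls, or none, and the member median ran from −4.12 to −3.33. Against fibroblasts (41) they came to 0 to 44 with each array left out: 0 without adult replicate 1 and 7 without adult replicate 2. With 1 array left in a group, that array was assumed to vary like the others. Such fits also have fewer residual degrees of freedom, and the part of this in the lost calls was not tested. With the mean of all probe sets, the member median was −2.78 against neonatal cardiomyocytes and −2.56 against fibroblasts. The groups of the titles gave a median of −0.85 between the neonatal cell types. In the adult comparisons only Cenpa and Cenpf changed sign. Against neonatal cardiomyocytes the titles' groups gave 0.027 for Cenpa and 0.05 for Cenpf. Against fibroblasts Cenpf gave 0.09 without adult replicate 1, 0.38 without fibroblast replicate 2 and 0.11 with arrays centred on the 75th percentile (−0.668 to 0.38 with each array left out), and Cenpa 0.31 without fibroblast replicate 2 and 0.12 with the mean of all probe sets. Between the neonatal cell types, where no member was called, 31 of 46 members changed sign with the titles' groups and 31 without both replicate 1 arrays. There 29 changed sign without cardiomyocyte replicate 1, 24 without fibroblast replicate 1 and 11 without replicate 2 of either. The cause was not tested. Centring on the 75th percentile moved the median of all genes to 0.31 against neonatal cardiomyocytes and to 0.35 against fibroblasts, and the member medians were then −3.46 and −3.41. Among values of the members named by rule in the adult comparisons, 425 kept their side of the threshold, 107 lost it, 19 gained it and 4 changed sign. Other mitosis genes called between adult and neonatal cardiomyocytes numbered 31. Without both neonatal replicate 1 arrays these calls were lost together with those of all genes.

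With the replicate number as a block, 32 members were called between adult and neonatal cardiomyocytes, against 607 of all 18193 genes. Between adult cardiomyocytes and fibroblasts 41 members and 4811 of all genes were called. Between the neonatal cell types 0 of all genes were called, so also 0 members. The labels do not say what arrays of the same number share. The differences between replicates 1 and 2 correlated at 0.27 between adult and neonatal cardiomyocytes, 0.18 between neonatal cardiomyocytes and fibroblasts, and 0.21 between adult cardiomyocytes and fibroblasts over all genes, and with 2 numbers the pairing is not settled. Adult values near the low end of the RMA scale limit the precision of the largest folds.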
